A study of Mus musculus with 6 samples.

Results

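Heat shock proteins and J-domain proteins are the chaperones that fold new proteins, hold damaged ones in solution and pass them on for repair or removal. The genes described here are the protein-coding genes whose mouse symbols begin with Hspa, Hspb, Hspd, Hspe, Hsph, Hsp90a, Hsp90b, Dnaja, Dnajb or Dnajc followed by a number, with gene symbols from GENCODE M21 matched by Ensembl identifier. The rule found 73 of the 54232 genes in the count data. They comprise 13 Hspa, 9 Hspb, 3 Hsp90, 4 Dnaja, 13 Dnajb and 28 Dnajc genes, with Hspd1, Hspe1 and Hsph1. All came from heart ventricle of wild-type C57BL/6J mice that had been on western diet (WD) for 15 weeks and were then needle-fed for 3 weeks. In the WD + Tributyrin group (n = 3 mice) the feed was Tributyrin, a triglyceride of butyrate, at 5 g/kg of body weight, and in the WD + Vehicle group (n = 3 mice) it was vehicle, which the sample labels name PBS. Both groups therefore carried the diet, no mouse on normal chow was sequenced here, and the study used male and female mice without the labels giving the sex of each sample. Stranded mRNA sequencing counted single-end reads over the exons of each gene.

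The families work as a network. HSP70 proteins (Hspa genes) bind unfolded segments in a cycle of ATP hydrolysis, J-domain proteins (Dnaj genes) deliver the client and stimulate that hydrolysis, and nucleotide exchange factors such as Hsph1 release it. HSP90 proteins finish the folding of kinases and receptors, the Hspd1 and Hspe1 chaperonin folds proteins inside mitochondria, and small heat shock proteins (Hspb genes) hold unfolded proteins without ATP and are abundant at the sarcomere of heart muscle. Many cytosolic members are switched on by the factor HSF1 at heat shock elements, and several members of the endoplasmic reticulum (ER) by ER stress elements.

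The 6 libraries held 20369746 to 32734485 counts on genes. Ventricular cardiomyocyte markers were abundant in every mouse. The 10 markers summed to 44651 to 49005 TPM in vehicle mice and 41106 to 43404 TPM in Tributyrin mice, without overlap on this scale. TPM are counts per exonic length, scaled to sum to 1000000 in each library, mitochondrial transcripts included. By log2 fold change (Tributyrin over vehicle) 7 of the 10 were above 0, at a median of 0.05. In edgeR, 3 of them were higher and 1 was lower at an unadjusted p under 0.05. The 5 atrial markers were also present, at a summed 136 to 382 TPM in the vehicle mice and 64.9 to 135 TPM in the Tributyrin mice. In edgeR, 4 of 5 were lower with Tributyrin at an unadjusted p under 0.05, but 0 of 5 were without overlap between the groups. Their mean log2 CPM (counts as parts of 1000000 in the library) was 4.62, 4.35 and 1.4 in vehicle mice 1 to 3. In Tributyrin mice 1 to 3 it was 2, 2.88 and 2.09, so vehicle mouse 3 was the lowest of all on that measure. The part of the atrial markers in the results for the chaperones was not tested beyond a fit with the atrial level as a covariate. In that fit Hspb11 was the 1 member with an unadjusted p under 0.05. Among other cell types, the median log2 fold change was -0.30 for 5 fibroblast markers, 0.35 for 4 smooth muscle markers, -0.05 for 5 macrophage markers and -0.02 for 5 endothelial markers. In bulk tissue, fewer cells of a type and less RNA per cell cannot be told apart.

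Of the 73 members, 64 had enough counts for the test. None passed a false discovery rate of 10% in edgeR's quasi-likelihood test, and the share of all 14133 tested genes that passed was 0%. DESeq2 and limma-voom also called no member at 10%, although DESeq2 called 11 genes in all. At an unadjusted p under 0.05, 1 member was higher with Tributyrin, against 1.97% of all tested genes, and 0 members were lower, against 2.28% of all tested genes. DESeq2 and limma-voom gave 1 member each at that level. The single member was Dnajb1, the classic HSP40 cochaperone. Log2 fold changes (Tributyrin over vehicle) were above 0 for 34 of 64 members, against 49.6% of all tested genes. Their median was 0.02, beside -0.001 for all genes.

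These measurements were precise enough to bound the changes. The fitted change was under 10% in either direction for 55 of the 64 members, between 10% and 20% for 7, and above that for 2 (Hspb11 and Hspa1a), both of which had low counts. The 95% confidence interval lay within 25% of no change for 50 members and within 50% for 60. Normalized counts (counts scaled by DESeq2 size factors) did not overlap between the groups for 7 of 64 members, against 8.91% of all tested genes. Of those 7, Dnajb1, Dnaja1, Dnaja2, Dnajb2 and Hspd1 were higher with Tributyrin, and Dnajc27 and Hspa13 were lower. Under scaling by library size alone, the median of the members was -0.06 and that of all genes -0.07, so the sign of a small median depends on the scaling.

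**Figure D1:**
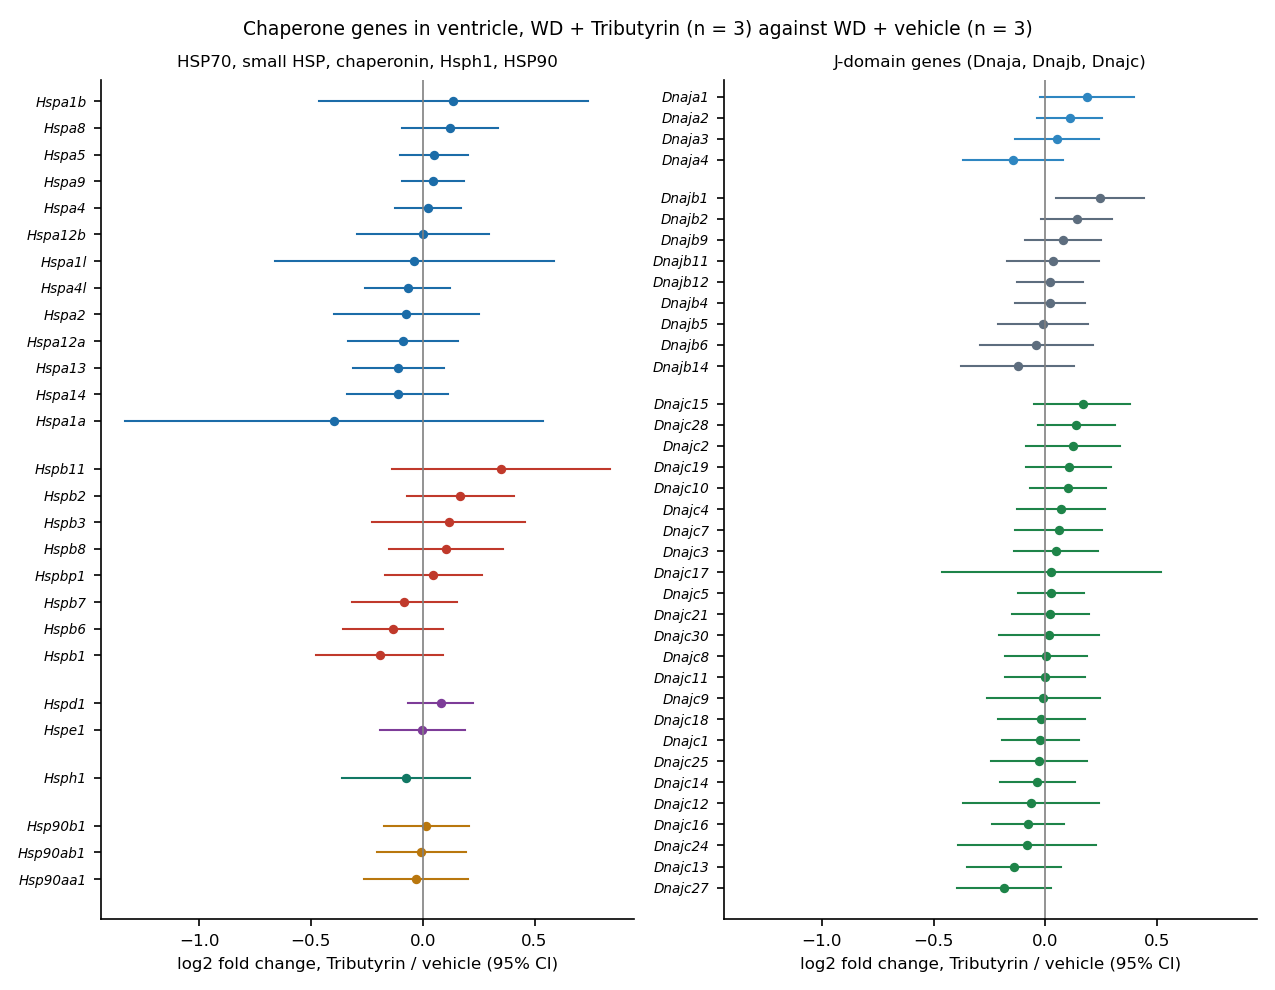
Log2 fold change of each of the 64 tested members (points) with its 95% confidence interval (lines), from edgeR, on the x axis, grouped by family and ordered by value within each family. The interval excludes 0 for Dnajb1 alone, and the 5 widest intervals belong to Hspa1a, Hspa1l, Hspa1b, Dnajc17 and Hspb11.

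By level per exonic length, the chaperones ranged from among the most abundant transcripts of the ventricle to barely detected ones. The mean over the 6 mice was above 100 TPM for 11 members, from 10 to 100 for 37, from 1 to 10 for 15 and at most 1 for 10. Hspb7, a small heat shock protein of heart and vessel muscle, led with 2635 TPM ± 371 (SD, n = 6). It was followed by Hsp90ab1 at 867 TPM ± 108 and Hspb6 at 846 TPM ± 121 (SD, n = 6), whose values overlapped. Hspb8 came next at 574 TPM ± 66.6, then the mitochondrial HSP70 gene Hspa9 at 451 TPM ± 23.0 and the constitutive cytosolic HSP70 gene Hspa8 at 384 TPM ± 47.8 (SD, n = 6). The heat-inducible HSP70 genes stood at the other end, with 1.08 TPM ± 0.164 for Hspa1b and 0.646 TPM ± 0.272 for Hspa1a (SD, n = 6). These genes share much of their sequence, so their levels depend on how reads that match both were treated. Summed per family, the Hspb genes gave 4724 TPM ± 689 (SD, n = 3) in vehicle mice and 4123 TPM ± 148 in Tributyrin mice, with overlap. The largest family by number, Dnajc, gave 468 TPM ± 11.3 and 441 TPM ± 14.0 (SD, n = 3). The summed Dnajc levels did not overlap between the groups on this scale, which counts mitochondrial transcripts in its total. Those transcripts took 23.6% to 26.5% of counts in vehicle mice and 25.9% to 28.8% in Tributyrin mice.

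**Figure D2:**
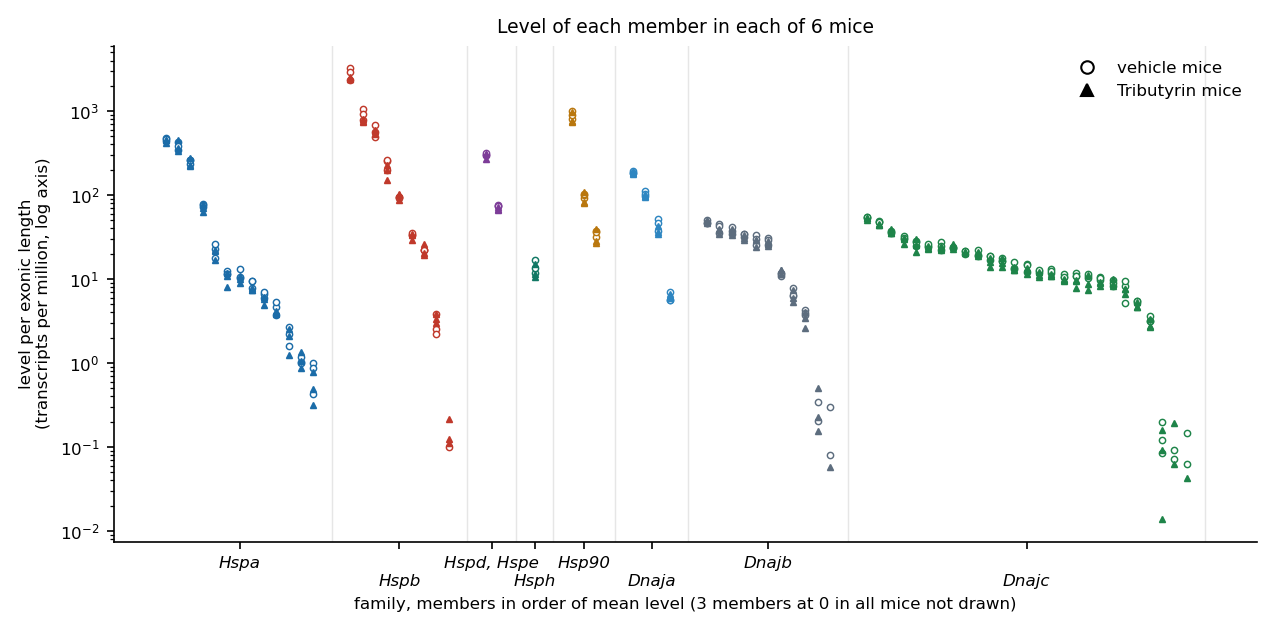
Level of each member in each of the 6 mice in TPM (y axis, log scale), by family and in order of mean level. Open circles are vehicle mice and filled triangles Tributyrin mice. Members differ by orders of magnitude within the Hspa, Hspb, Dnajb and Dnajc families. The mice of both groups lie close together for the more abundant members. Barely detected members vary more, as Dnajc6 does (0.0138 to 0.197 TPM), and values of 0 are not drawn. The small heat shock gene Hspb7 is the highest point in all 6 mice.

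Several members share sequence with another gene, either a near-identical copy elsewhere, where counts depend on how reads with several matches were treated, or an overlapping neighbour. For 14 members under 80% of the 50-base windows of their exons were unique among annotated transcripts, and for 6 of them over 20% of the windows were found in genes elsewhere. Hspa1a shared 58.8% of its windows with Hspa1b, Hspb1 shared 48.8% with the pseudogene Hsp25-ps1, Hsp90aa1 41.8% with the pseudogene Gm12346, Hspd1 38.0% with Hspd1-ps3 and Hspa8 34.6% with Gm15459. Hspb2 overlaps the far more abundant alpha-crystallin gene Cryab on the opposite strand over 24.4% of its windows. The values of these genes are uncertain to that extent.

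Among the HSP70 genes, 5 of 13 fold changes were above 0, with a median of -0.04 that ranged from -0.086 to 0.033 when a mouse was left out, and none reached an unadjusted p under 0.05. Hspa8, which carries most of the cytosolic folding work, had 17141, 19799 and 17412 normalized counts in vehicle mice 1 to 3 and 17298, 21956 and 19907 in Tributyrin mice 1 to 3. The second Tributyrin mouse was the highest and the first lay among the vehicle mice, so the groups overlapped. Its log2 fold change was 0.12 (SE 0.10). The heat-inducible pair had few counts, with the limit of their shared sequence given above. Hspa1a (chromosome 17, 34969190 to 34972156, GRCm38) had 14.6, 31.8 and 27.3 normalized counts with vehicle and 11.2, 16.4 and 29.8 with Tributyrin, and its neighbour Hspa1b had 33.3, 35.7 and 29.8 with vehicle and 29, 32.9 and 48.2 with Tributyrin. Both genes overlapped between the groups and varied between mice. The log2 fold changes were -0.40 (SE 0.42) for Hspa1a and 0.14 (SE 0.27) for Hspa1b, and leaving out Tributyrin mouse 3 took Hspa1b to -0.09 and Hspa1a to -0.83. Hspa1a was at -0.12 without Tributyrin mouse 1, -0.14 without vehicle mouse 2 and -0.65 without vehicle mouse 1.

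Organelle HSP70 genes were far steadier. Hspa5, the ER chaperone BiP, had 11510, 11878 and 11971 normalized counts with vehicle and 11627, 12932 and 12032 with Tributyrin, a log2 fold change of 0.05 (SE 0.07). Hspa9, which pulls imported proteins into the mitochondrial matrix, had 22042, 22115 and 21609 with vehicle and 23075, 21964 and 22800 with Tributyrin. Its log2 fold change was 0.05 (SE 0.06), with a 95% interval of -6.37% to 13.8% for the change. Hspa13, a microsomal HSP70 relative, was lower in each Tributyrin mouse (466, 467 and 424) than in any vehicle mouse (469, 483 and 516), with a log2 fold change of -0.11 (SE 0.09) and an edgeR unadjusted p of 0.258 (adjusted p = 0.999). The gap between the nearest mice of the groups was smaller than the spread within either group.

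The remaining HSP70 genes are more distant relatives. Hspa12b, an atypical member of endothelial cells, had 748, 898 and 1021 normalized counts with vehicle and 742, 910.0 and 1013 with Tributyrin, so that the mice of each group covered nearly the same range and the log2 fold change was -0.001 (SE 0.13). Hspa12a had 1310, 1122 and 1127 with vehicle and 1275, 1113 and 953 with Tributyrin, at -0.09 (SE 0.11). The ribosome-associated Hspa14 gave -0.11 (SE 0.10), and Hspa2 and Hspa1l, both best known from germ cells, gave -0.07 (SE 0.15) and -0.04 (SE 0.28). Hspa1l shared 71.4% of its windows with the antisense gene Gm10501.

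None of the members that act as exchange factors and reset HSP70 had an unadjusted p under 0.05 in edgeR. Hsph1, the heat-inducible HSP110, had 1000, 1316 and 1047 normalized counts with vehicle and 902, 1226 and 1067 with Tributyrin. Vehicle mouse 2 was the highest and Tributyrin mouse 1 the lowest, and the groups overlapped. The log2 fold change was -0.08 (SE 0.13), with a 95% interval of -22.2% to 15.9% for the change. The related genes Hspa4 and Hspa4l gave 0.02 (SE 0.07) and -0.07 (SE 0.09), and Hspbp1, an exchange factor that matches the naming rule of the Hspb genes without being a small heat shock protein, gave 0.05 (SE 0.10).

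The HSP90 genes had the family median closest to 0, at -0.01 (-0.082 to 0.066 when a mouse was left out), with 1 of 3 above 0. Hsp90ab1, the constitutive cytosolic form, had 27721, 32409 and 29162 normalized counts with vehicle and 26834, 32374 and 29661 with Tributyrin. Hsp90aa1, the inducible form, had 1446, 1562 and 1521 with vehicle and 1332, 1742 and 1354 with Tributyrin, with Tributyrin mouse 2 above and the other 2 Tributyrin mice below every vehicle mouse. Hsp90b1, the ER form (GRP94), had 4265, 4299 and 4384 with vehicle and 4003, 4915 and 4156 with Tributyrin, with the same mouse standing above. The log2 fold changes were -0.01 (SE 0.09), -0.03 (SE 0.11) and 0.02 (SE 0.09), in that order. Leaving out Tributyrin mouse 2 took Hsp90aa1 to -0.17 at an unadjusted p of 0.0382 in edgeR, with 9.56% of all genes under 0.05 in that fit (adjusted p = 0.499 for Hsp90aa1).

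The mitochondrial chaperonin genes sit head to head on chromosome 1. Hspd1 had 9044, 8575 and 8950 normalized counts with vehicle and 9630, 9196 and 9233 with Tributyrin, and every Tributyrin mouse was above every vehicle mouse. Its partner Hspe1 had 1273, 1218 and 1163 with vehicle and 1170, 1124 and 1357 with Tributyrin, with full overlap. The log2 fold changes were 0.08 (SE 0.06) for Hspd1 and -0.002 (SE 0.09) for Hspe1. Taken with other mitochondrial members (Hspa9, Dnaja3, Dnajc11, Dnajc15, Dnajc19 and Dnajc30), 6 of 8 were above 0 at a median of 0.05, and 0 of 8 had an unadjusted p under 0.05. The member that differed most among them was Dnajc15, which sits at the inner membrane import channel. It had 1776, 1654 and 1662 normalized counts with vehicle and 1903, 1646 and 2165 with Tributyrin. Its second Tributyrin mouse was lower than all 3 vehicle mice and the third Tributyrin mouse was the highest of all, and the log2 fold change was 0.17 (SE 0.10). Dnajc19, a J-domain gene of the same channel whose loss in people causes cardiomyopathy with ataxia, gave 0.10 (SE 0.09).

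Small heat shock proteins of muscle gave 3 fold changes above 0 and 3 below among 6 genes (Hspb1, Hspb2, Hspb3, Hspb6, Hspb7 and Hspb8), at a median of 0.01, and none reached an unadjusted p under 0.05. Hspb7 had 74403, 96826 and 86338 normalized counts with vehicle and 79468, 73961 and 89621 with Tributyrin. Hspb6, a phosphorylated cardioprotective member, had 20989, 26035 and 22709 with vehicle and 20248, 19471 and 23931 with Tributyrin. Vehicle mouse 2 was the highest for both genes and Tributyrin mouse 2 the lowest, and the log2 fold changes were -0.08 (SE 0.11) and -0.13 (SE 0.10).

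Hspb1, the HSP25 gene of mouse, had 2393, 2816 and 2881 normalized counts with vehicle and 1859, 2604 and 2610 with Tributyrin. Tributyrin mouse 1 was the lowest of all 6 and the other 2 lay between the vehicle mice, and the log2 fold change was -0.19 (SE 0.13), or -0.04 without that mouse. Hspb8, which works with Bag3 in clearing damaged sarcomere proteins, had 12556, 14362 and 10281 with vehicle and 12260, 13118 and 14545 with Tributyrin, a log2 fold change of 0.10 (SE 0.11) that was 0.24 with the atrial covariate, 0.22 without vehicle mouse 2 and -0.015 without vehicle mouse 3. Its spread within the vehicle group was wider than the difference between the groups. Hspb2 and Hspb3, muscle genes whose proteins form a complex, gave 0.17 (SE 0.11) and 0.12 (SE 0.15). Hspb2 had 925, 825 and 850 normalized counts with vehicle and 1000, 818 and 1102 with Tributyrin. Hspb3 had 200, 185 and 186 with vehicle and 180, 181 and 259 with Tributyrin, so that Tributyrin mouse 3 alone stood above the vehicle mice. Hspb11 matches the naming rule but encodes an intraflagellar transport protein. It had 60.3, 85.3 and 48.5 normalized counts with vehicle and 83.2, 88.6 and 79.2 with Tributyrin, and its log2 fold change of 0.35 (SE 0.22) was the highest of the members, though smaller in size than that of Hspa1a. It was 0.62 without vehicle mouse 2 (unadjusted p = 0.0176 in edgeR, adjusted p = 1.0), 0.19 without vehicle mouse 3, and 0.59 with the atrial covariate (unadjusted p = 0.0388 in edgeR, adjusted p = 1.0).

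J-domain genes made up 37 of the 64 tested members, with 22 fold changes above 0 and a median of 0.02. Dnajb1 (ENSMUSG00000005483, on chromosome 8 from 83608193 to 83612653 in GRCm38) had 397, 409 and 388 normalized counts in vehicle mice 1 to 3 and 493, 453 and 469 in Tributyrin mice 1 to 3. All 3 Tributyrin mice were above all 3 vehicle mice, and the groups were separated by more than the spread within either. The group means were 398 ± 10.5 and 472 ± 19.9 (SD, n = 3). Its log2 fold change of 0.25 (SE 0.09) is a rise of 18.6%, with a 95% interval from 3.45% to 35.9%. The edgeR quasi-likelihood test gave an unadjusted p of 0.0193, rank 216 of the 14133 genes, and an adjusted p of 0.999, so that Dnajb1 did not pass the correction. With the level of atrial transcripts as a covariate the log2 fold change was 0.26 (SE 0.12), at an unadjusted p of 0.0529 in edgeR (adjusted p = 1.0), and with library size alone it was 0.17 (SE 0.09), at 0.0922 (adjusted p = 0.804). Leaving out vehicle mouse 3 gave an unadjusted p of 0.0615, and leaving out Tributyrin mouse 1 gave 0.0594, both in edgeR with an adjusted p of 1.0. Dnajb1 had 312 to 527 raw counts per library, and its level was 11.8 TPM ± 0.837 (SD, n = 6).

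The Dnaja genes encode the closest relatives of bacterial DnaJ. Dnaja1 had 554, 518 and 641 normalized counts with vehicle and 650.0, 645 and 649 with Tributyrin. The Tributyrin mice lay within 5 counts of each other, just above vehicle mouse 3, and the log2 fold change was 0.19 (SE 0.10). Dnaja2, the most abundant J-domain gene at 186 TPM ± 6.90 (SD, n = 6), had 6260, 6257 and 5842 with vehicle and 6535, 6443 and 6799 with Tributyrin. Its groups did not overlap either, and its log2 fold change was 0.11 (SE 0.07). Dnaja4 had 1559, 1991 and 1790 with vehicle and 1458, 1716 and 1652 with Tributyrin, and its log2 fold change was -0.15 (SE 0.10), below 0 where those of Dnaja1, Dnaja2 and the mitochondrial Dnaja3 were above it.

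Among the Dnajb genes, 6 of 9 tested were above 0, at a median of 0.02 (-0.016 to 0.052 when a mouse was left out). Dnajb2, a J-domain gene with ubiquitin-binding motifs, had 2278, 2308 and 2086 normalized counts with vehicle and 2391, 2410 and 2548 with Tributyrin, without overlap, and a log2 fold change of 0.14 (SE 0.07). Dnajb14, an ER membrane member, had 680.0, 713 and 668 with vehicle and 641, 723 and 523 with Tributyrin, a log2 fold change of -0.12 (SE 0.11). Tributyrin mouse 3 was the lowest there and mouse 2 the highest. Dnajb6, which keeps proteins from aggregating and is mutated in a muscular dystrophy, gave -0.04 (SE 0.11), and Dnajb4 and Dnajb5 gave 0.02 (SE 0.07) and -0.01 (SE 0.09).

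Dnajc genes are the most diverse, since they share the J domain alone. Of 24 tested, 13 were above 0, at a median of 0.01 that became -0.06 with library size alone. The highest level belonged to Dnajc4, at 53.5 TPM ± 1.65 (SD, n = 6), with 791, 710 and 733 normalized counts with vehicle and 797, 707 and 837 with Tributyrin, and its log2 fold change was 0.07 (SE 0.09). Dnajc27, which joins a small GTPase to a J domain, was the lowest by fold change, with 690.0, 589 and 598 with vehicle and 572, 560.0 and 514 with Tributyrin. All 3 Tributyrin mice were below all 3 vehicle mice, and the log2 fold change was -0.19 (SE 0.09). Its edgeR unadjusted p was 0.0769 (adjusted p = 0.999), and it was 0.0257 with library size alone. Of the vesicle genes, Dnajc5, the cysteine string protein of secretory vesicles, gave 0.03 (SE 0.07), and Dnajc13, which acts on endosomes, gave -0.14 (SE 0.10).

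The other Dnajc genes act at ribosomes, in splicing and at single enzymes. Dnajc28, a little-studied member, had 1445, 1438 and 1383 normalized counts with vehicle and 1659, 1424 and 1608 with Tributyrin. Tributyrin mice 1 and 3 were above and mouse 2 was among the vehicle mice, and the log2 fold change was 0.14 (SE 0.08). Dnajc2, which receives new chains at the ribosome, gave 0.12 (SE 0.09), Dnajc21, which acts in ribosome assembly, 0.02 (SE 0.08), and Dnajc7, a cochaperone of HSP70 and HSP90, 0.06 (SE 0.09). The splicing-related Dnajc8 and Dnajc17 gave 0.00 (SE 0.08) and 0.03 (SE 0.22). Dnajc17 had the widest spread of the Dnajc genes, since vehicle mouse 3 had 72.1 normalized counts where the other vehicle mice had 125 and 133. Dnajc9, a histone chaperone, gave -0.01 (SE 0.11), and Dnajc24, which acts in diphthamide synthesis, -0.08 (SE 0.14). The mitochondrial Dnajc11 and Dnajc30 gave -0.001 (SE 0.08) and 0.02 (SE 0.10). Dnajc1, Dnajc12, Dnajc14, Dnajc16, Dnajc18 and Dnajc25 lay between -0.08 and -0.02.

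A list of 11 members (Hspa1a, Hspa1b, Hspa8, Hsph1, Hsp90aa1, Hsp90ab1, Dnajb1, Dnaja1, Hspb1, Hspd1 and Hspe1) joins heat-inducible genes with the constitutive forms Hspa8 and Hsp90ab1. It is therefore not a measure of HSF1 activity alone. Of the 11, 5 were above 0 and 6 below, at a median of -0.002, beside -0.001 for all genes. With 5 above 0 and 6 below, the list was split between higher and lower members. Dnajb1 had the only unadjusted p under 0.05 in edgeR. Of all tested genes, 1.97% were higher and 2.28% lower at that level. Dnajb1, Dnaja1 and Hspd1 were the 3 without overlap, beside 8.91% of all tested genes. The list was chosen with earlier results of these data known. Within the vehicle group, mouse 2 was the highest for 7 of the 11 (63.6%, beside 34.9% of all tested genes). Within the Tributyrin group, mouse 1 was the lowest for 7 (63.6%, beside 30.6%). Over all tested members, vehicle mouse 2 was the highest of its group for 35 of 64 (54.7%, beside 34.9% of all tested genes) and Tributyrin mouse 3 for 31 (48.4%, beside 35.7%).

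**Figure D3:**
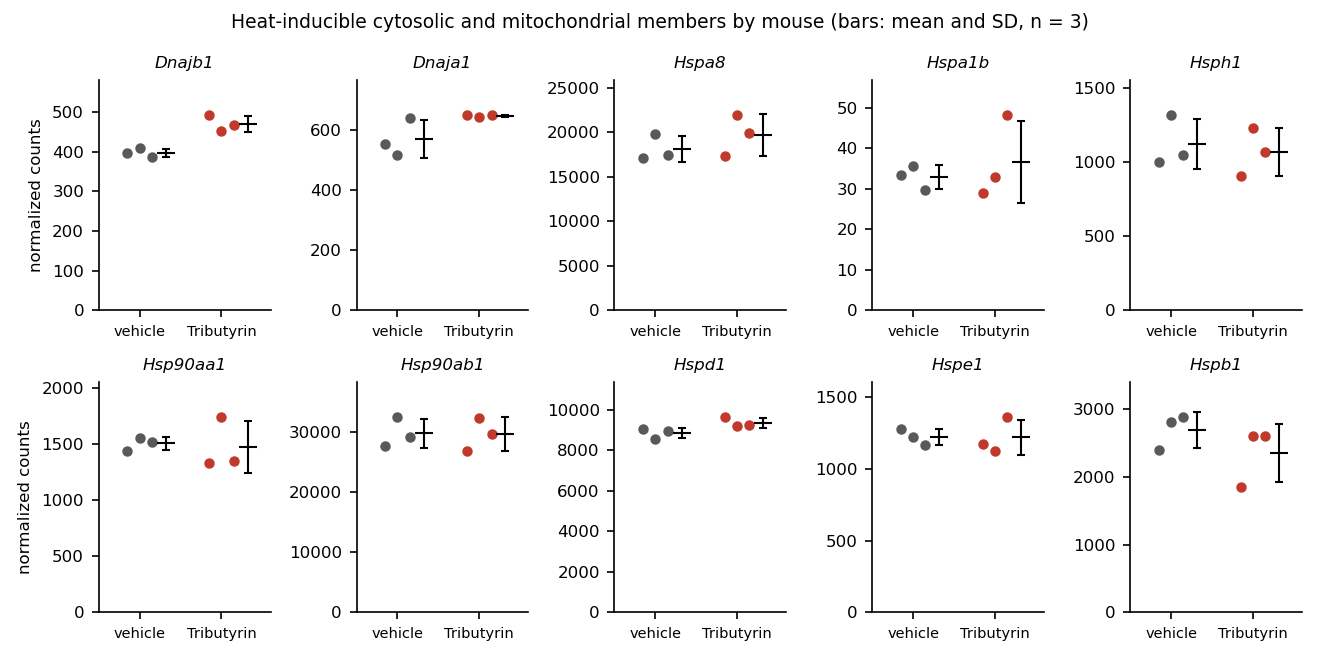
Normalized counts (y axis, from 0) in each mouse for 10 members, heat-inducible genes with the constitutive Hspa8 and Hsp90ab1. Vehicle mice are in grey and Tributyrin mice in red, with the mean and SD (n = 3) beside them. Dnajb1, Dnaja1 and Hspd1 have no overlap between the groups, with means of 398 and 472 for Dnajb1, and the other panels overlap.

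The letters that HSF1 reads are shown here for some of the members that hold them. Promoters (250 bases before to 50 bases after each start, RefSeq, GRCm38.p6) were given for 59 of the 73 members. Each was searched on both strands for a pair of heat shock units, GAANNTTC or TTCNNGAA, and for 3 units in a row, alternately GAA and TTC with NN between them, which contain the pairs. A pair was found in 18 of 76 promoters of members (23.7%), beside 15.1% of all 32851 promoters, and 3 units in 6 of 76 (7.89%), beside 0.603%. Those 6 promoters belong to 4 members. The promoters of Hspd1 and Hspe1 overlap, as do those of the different starts of Hsph1 and of Dnajb6. The same sites were therefore counted more than once, among the pairs as well, and the shares are not of independent promoters. The promoters of Hspa1b and Hspb1 follow as the 150 bases before the start, chr17:34959239-34959388 on the minus strand and chr5:135887769-135887918 on the plus strand. For Hspe1 (chr1:55088053-55088082, plus strand), Hsph1 (chr5:149636280-149636309, minus strand) and Dnajb6 (chr5:29735843-29735872, plus strand) the 30 bases around the 3 units follow. In Hspe1 these are 2 overlapping runs of 3 units. All read 5′ to 3′ along the gene, and capitals mark the heat shock units.
Hspa1b: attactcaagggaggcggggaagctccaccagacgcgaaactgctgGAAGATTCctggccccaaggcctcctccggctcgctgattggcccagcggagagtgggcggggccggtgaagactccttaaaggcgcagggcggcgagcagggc
Hspb1: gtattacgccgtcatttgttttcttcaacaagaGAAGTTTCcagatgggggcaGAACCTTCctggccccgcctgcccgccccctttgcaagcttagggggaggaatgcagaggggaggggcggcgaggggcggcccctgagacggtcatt
Hspe1: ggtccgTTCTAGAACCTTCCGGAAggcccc
Hsph1: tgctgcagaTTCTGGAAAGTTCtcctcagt
Dnajb6: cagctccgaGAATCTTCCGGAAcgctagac

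Counted from the start, the units lie at bases -104 to -97 in Hspa1b and at -117 to -110 and -97 to -90 in Hspb1. They lie at -89 to -72 in Hspe1 and -46 to -34 in Dnajb6, and in Hsph1 the 3 units shown lie after the start, at bases 16 to 28, with a further pair at -54 to -47. For Hsph1 and Dnajb6, which have different starts, these positions are from a single start and differ from another. Among the members with a promoter given, those that hold these letters did not stand apart in the comparison with vehicle. Hsp90aa1, Hsp90ab1, Hspa8, Hspa9 and Hspb2 had no promoter given and are left out of the counts that follow. Of 15 tested members with a pair, 7 were above 0 and the median was -0.002 on the log2 scale, and of 37 tested members without one, 21 were above 0 at a median of 0.02. The 4 members with 3 units (Hspd1, Hspe1, Hsph1 and Dnajb6) ranged from -0.08 to 0.08. Dnajb1 had a promoter in the table and none of these letters in that window.

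Members of the ER are the second stress-responsive group. Of 10 (Hspa5, Hsp90b1, Hspa13, Dnajb9, Dnajb11, Dnajc1, Dnajc3, Dnajc10, Dnajb12 and Dnajb14), 7 were above 0 at a median of 0.03, and 0 had an unadjusted p under 0.05. The cochaperones that deliver clients to BiP gave 0.08 (SE 0.08) for Dnajb9, 0.03 (SE 0.09) for Dnajb11 and 0.05 (SE 0.08) for Dnajc3. Dnajc10, which reduces wrong disulfide bonds, gave 0.10 (SE 0.08). The ER stress element, CCAAT and CCACG with 9 bases between them (both strands), was found in the promoters of Hspa5, Hsp90b1 and Dnajc3, or 3.95% of the promoters of members, beside 0.119% of all. It is shown with capitals in 30 bases for Hspa5 (chr2:34772019-34772048, plus strand) and Dnajc3 (chr14:118937821-118937850, plus strand), as examples of members that hold it. None was found in the promoters given for Dnajb9, Dnajb11, Dnajb12, Dnajb14, Dnajc1 and Dnajc10.
Hspa5: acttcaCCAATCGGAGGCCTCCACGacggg
Dnajc3: ccacaaCCAATCAGCGCCAACCACGacccg

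All 3 genes with that element were above 0, between 0.02 and 0.05 on the log2 scale. With library size alone Hspa5 was at -0.02 and Hsp90b1 at -0.05, where the median of all genes was -0.07.

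The partners outside the families were measured with standard errors of similar size. Of 50 cochaperones, exchange factors, regulators and proteases, 49 were tested, 30 were above 0 and 0 had an unadjusted p under 0.05 in edgeR in either direction, and their median was 0.02. Hsf1, the master factor of the heat shock response, had 875, 972 and 842 normalized counts with vehicle and 852, 896 and 886 with Tributyrin, a log2 fold change of -0.03 (SE 0.08). Bag3, the exchange factor that pairs with Hspb8, had 5744, 6923 and 6260 with vehicle and 6162, 6265 and 6080 with Tributyrin, also -0.03 (SE 0.08). Cryab, the alpha-crystallin of heart, gave -0.05 (SE 0.08). For both Hsf1 and Bag3 the Tributyrin mice lay within the range of the vehicle mice. The 8 subunits of the cytosolic chaperonin TRiC (Tcp1 and the Cct genes) ranged from -0.03 to 0.13, at a median of 0.02, and 6 of 8 were above 0.

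Ratios of related genes within each mouse remove the scaling between libraries. Of 7 ratios compared with exact permutation tests, for which 3 mice against 3 give no p under 0.1, the lowest two-sided p was 0.1 for Hsph1 over Hspa8 (0.7 after Benjamini-Hochberg adjustment over the 7). Its log2 ratio was -4.10, -3.91 and -4.06 with vehicle and -4.26, -4.16 and -4.22 with Tributyrin. The ratio was lower in all 3 Tributyrin mice than in any vehicle mouse, by 0.19 on average. Hspd1 over Hspe1 was higher by 0.08 with Tributyrin (exact p = 0.4), Hspb2 over Cryab by 0.21 (exact p = 0.3) and Dnajb1 over Dnaja1 by 0.06 (exact p = 0.8). Inducible over constitutive forms differed by -0.04 for Hsp90aa1 over Hsp90ab1 (exact p = 0.7) and 0.01 for Hspa1b over Hspa8 (exact p = 1.0).

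The spread between mice of the same group was also described by family. The SD of log2 CPM (counts as parts of 1000000 in the library) within groups, pooled over both groups, had a median of 0.11 over the members and 0.15 over all tested genes, and was above the latter for 17 of 64 members. The members were also more abundant, with a median level of 5.41 log2 CPM beside 3.74 for all tested genes. J-domain genes were above the median of all genes for 3 of 37. Small heat shock genes of muscle were above it for 6 of 6, and 4 of them are among the most abundant members, with an SD of 0.16 for Hspb7, 0.15 for Hspb6, 0.19 for Hspb8 and 0.22 for Hspb1. The steadiest members were Dnajb12, with an SD of 0.02, and Hspa9, with 0.03. These values describe 3 mice in each group and were not compared with a test.

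**Figure D4:**
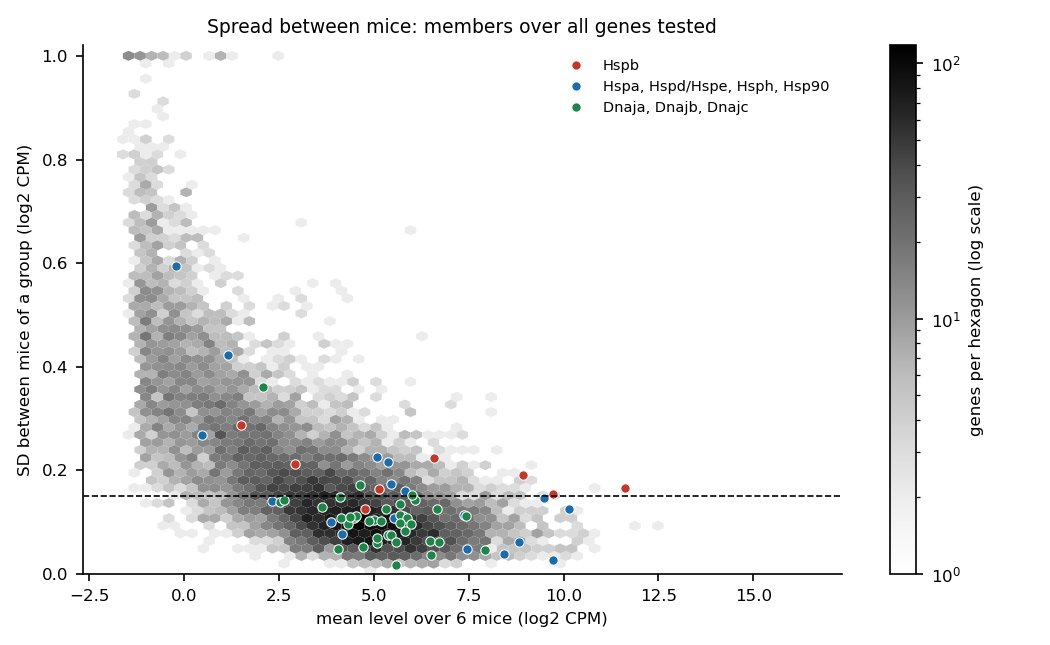
SD between mice of a group (y axis, log2 CPM, values above 1 drawn at 1) against mean level (x axis, log2 CPM), with all 14133 tested genes as grey hexagons, the members as coloured points and the median SD of all genes, 0.15, as a dashed line. All tested Hspb genes are red, with Hspbp1 and Hspb11 among them. The small heat shock genes of muscle lie on or above the line, while Hspbp1 and most J-domain genes (green) lie below it.

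The 9 members that were not tested had few or no counts. Dnajb7, Dnajb8 and Dnajc5g had 0 counts in all 6 libraries. Dnajc6, the auxilin of neurons, had 1 to 12 counts per library, and Dnajb3, Dnajb13, Dnajc5b, Dnajc22 and Hspb9 had 0 to 9. Several of these are known from testis or brain. A count of 0 still allows up to 3 counts in a library, by counting error alone.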

How the data were processed

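RNA from heart ventricle was sequenced as stranded mRNA with single-end 50-base reads. The authors trimmed adapters (cutadapt 1.13), removed poor and rRNA reads, aligned with STAR to mm10 and counted reads per gene with HTSeq 0.6.1p1 (tools, versions and build from the submitters' processing notes), and deposited raw counts for each Ensembl gene, used here as they stand. The annotation release is not given in the sources used here, nor is the strand mode of the counting. The authors' DESeq2 1.14.1 results were not used.

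Counts of the 6 libraries, grouped by their labels, were fitted with edgeR 4.0.16 in R 4.3.3 (TMM scaling, filterByExpr with a minimum count of 10 and total of 15, quasi-likelihood test, no covariate, Benjamini-Hochberg adjustment over all genes tested). The edgeR, DESeq2 and limma-voom fits without covariates were tested on simulated counts, with changes larger than those of the members. The other steps were not tested in that way. DESeq2 1.42.0, limma 3.58.1 (voom), other scalings and filters, a block for the replicate number and fits without each mouse in turn were alternatives, and an atrial covariate was added after the data were seen. Levels in TPM used GENCODE M21 exonic lengths. Every library pair differed by more than sampling noise (chi-square per degree of freedom at least 7.4). Positions are from GENCODE M21 (GRCm38), which matched 54165 of 54232 identifiers.

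The members and lists were chosen with earlier results of these data known. Named in full were members with an unadjusted p under 0.05, the highest level and the extreme fold changes of each family, the main Hspa, Hspb, Hspd, Hspe, Hsph and Hsp90 genes, and Hsf1, Cryab and Bag3. Members without overlap between the groups were named after their values were seen, as were Dnajc10, Dnajc13, Dnajc19 and the other members given by fold change alone.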

Additional observations from a re-analysis of the deposited data

How the results depend on the processing

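No member passed a false discovery rate of 10% in any of the 17 alternatives. At an unadjusted p under 0.05, higher members numbered 1 in the main analysis, 0 with library size alone and 1 to 4 when a mouse was left out, and lower members numbered 0, against 1 with library size alone (Dnajc27), 1 without a filter on low counts (Hspb1) and 0 to 3 when a mouse was left out. Both maxima came without Tributyrin mouse 2, when Dnajb1, Dnajc15, Dnajc28 and Hspb2 were higher and Hsp90aa1, Dnajb14 and Dnajc13 lower, or 7 of 65 tested members beside 9.56% of all genes. Other members reached that level in fits without 1 mouse, namely Dnaja4 (lower, without vehicle mouse 1), Hspb11 (higher, vehicle mouse 2), Dnaja1 (higher, vehicle mouse 3), Hspa8 (higher, Tributyrin mouse 1) and Hspb6 (lower, Tributyrin mouse 3). Library size alone moved the median log2 fold change from 0.016 to -0.056 over all members, from 0.039 to -0.034 for Hspd1 and Hspe1 and from 0.010 to -0.064 for Dnajc, and reversed Dnajc4 (-0.005), Hsp90b1 (-0.055), Hspa5 (-0.022) and Hspa9 (-0.027), and the median of all genes was then -0.07. Hspe1 turned to 0.002 without a filter, and with the atrial covariate Hspe1 (0.020) and Hsp90ab1 (0.023) turned, while Dnaja1 was 0.102, Hsph1 -0.002 and Hspa1a -0.511. The cause of these shifts was not tested.

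Leaving out each mouse gave family medians of -0.056 to 0.136 for Hspb, -0.023 to 0.034 for Dnajc, -0.086 to 0.033 for Hspa, -0.082 to 0.066 for Hsp90 and -0.016 to 0.052 for Dnajb. The log2 fold changes that changed sign ranged from -0.170 to 0.043 (Hsp90aa1), -0.076 to 0.066 (Hsp90ab1), -0.082 to 0.078 (Hsp90b1), -0.090 to 0.287 (Hspa1b), -0.067 to 0.210 (Hspb3), -0.171 to 0.011 (Hspb7), -0.015 to 0.221 (Hspb8), -0.082 to 0.050 (Hspe1) and -0.193 to 0.058 (Hsph1). The log2 ratios did so from -0.094 to 0.024 (Hsp90aa1/Hsp90ab1), -0.197 to 0.149 (Hspa1b/Hspa8) and -0.048 to 0.144 (Dnajb1/Dnaja1). Dnajb1 stayed between 0.17 and 0.27 in every alternative.

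Same-numbered mice correlated at 0.21, 0.04 and 0.01 in their deviations from the group means, so the number was not taken as a pairing. With the replicate number as a block, 1 member was higher (Dnajb1) and 1 lower (Hspb1, -0.20, unadjusted p = 0.0261 in edgeR), beside 731 genes in all at an unadjusted p under 0.05 against 600 without it.

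With 3 mice in a group, the 95% interval included 0 for every tested member but Dnajb1, and those members could not be told from no change. The interval lay within 25% of no change for 50 of 64 members. The widest intervals were those of Hspa1a, Hspa1l, Hspa1b, Dnajc17 and Hspb11.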
